A study of Mus musculus with 6 samples.

Results

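The genes described here are the ligands and receptors of the tumour necrosis factor (TNF) superfamily that carry a systematic symbol, that is, every row of the deposited expression table whose symbol begins with Tnfsf or Tnfrsf followed by a digit. The rule found 32 of the 55401 genes of the table: 20 receptors, 11 ligands and 1 antisense RNA, Tnfsf13os. They were measured by sequencing of polyadenylated RNA in 6 libraries of mouse cells. The 3 libraries titled SSCs come from cultures of spermatogonial stem cells, which maintain sperm production, taken from testes of male mice aged 6 days. These cells grew on inactivated STO fibroblasts, a feeder line that is itself of mouse origin, with 10% serum, GDNF and EGF at 20 ng/mL each, and bFGF and LIF at 10 ng/mL each. The 3 libraries titled iNSCs come from neural stem cell-like cells derived from SSCs over 6 days on laminin. Their first medium held 1 µM retinoic acid for 24 h, and the next was a medium with N2, B27, 1% serum, bFGF at 20 ng/mL and SB431542, a blocker of TGF-beta type I receptors, at 10 µM. The sources used here give no genotype or strain, and no group was treated with a TNF family ligand.

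The groups follow the sample titles, because the cell type label contradicts the title of every sample. The summed level of 6 germ cell markers was 445 to 531 FPKM in the libraries titled SSCs and 7.78 to 10.5 FPKM in those titled iNSCs. FPKM is the count divided by exonic length and library total, so it can be compared between genes. Among the neural stem cell markers, Nes (95.8 to 104 FPKM) and Prom1 (24.1 to 30.0 FPKM) were high in iNSCs, whereas Sox2, Pax6 and Sox1 were at 0 to 0.0500 FPKM there and Fabp7 at 0.120 to 0.560 FPKM. The summed epithelial markers (Krt8, Krt18, Krt19, Epcam, Cdh1 and Cldn4) were at 2636 to 3159 FPKM in iNSCs and 152 to 250 FPKM in SSCs. Most of the SSC sum was Epcam, at 127 to 206 FPKM there and 91.7 to 110 FPKM in iNSCs with overlapping groups. The other 5 markers were each higher in iNSCs. The fibroblast markers summed to 418, 360 and 51.8 FPKM in SSCs replicates 1, 2 and 3 and to 114 to 161 FPKM in iNSCs. Library totals were 18058551 to 20156067 counts. The labels do not say that replicates are separate cultures, so p-values measure only the spread between these libraries, which may be technical.

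TNF superfamily ligands are trimeric proteins, most of them anchored in the membrane and some of them shed, and each binds 1 or more receptors with cysteine-rich extracellular domains. Receptors with an intracellular death domain can recruit the adaptors TRADD or FADD and, through FADD, caspase 8. Other receptors bind TRAF proteins and lead to NF-kB and to stress kinases. A few members are decoys that bind a ligand without a full signal. In vertebrate tissues the family is best known from lymphocytes and other immune cells, from bone remodelling and from epithelia.

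Of the 32 members, 18 rose and 6 fell in iNSCs, 6 were tested without being called and 2 were too low to be tested. A gene is said to rise or fall when its adjusted p in edgeR's quasi-likelihood test was under 0.05 and its log2 difference, always iNSCs minus SSCs, was at least 1 in size. Among all tested genes 25.7% rose and 27.6% fell, so that 53.3% were called in either direction. The receptors split into 11 that rose, 4 that fell and 4 that were not called, and the ligands into 6, 2 and 2. The median log2 difference was 1.65 over the 30 tested members and -0.05 over all 17387 tested genes. Of the called members, 6 risers passed the expression filter in iNSCs alone and 5 fallers in SSCs alone, so their presence in the test was tied to a difference. Counts over tested members are therefore a description and carry no support. The scaled levels of the groups did not overlap for 26 of the tested members, against 79.3% of all tested genes. In bulk RNA, fewer cells of a type and less RNA per cell cannot be told apart.

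**Figure D1:**
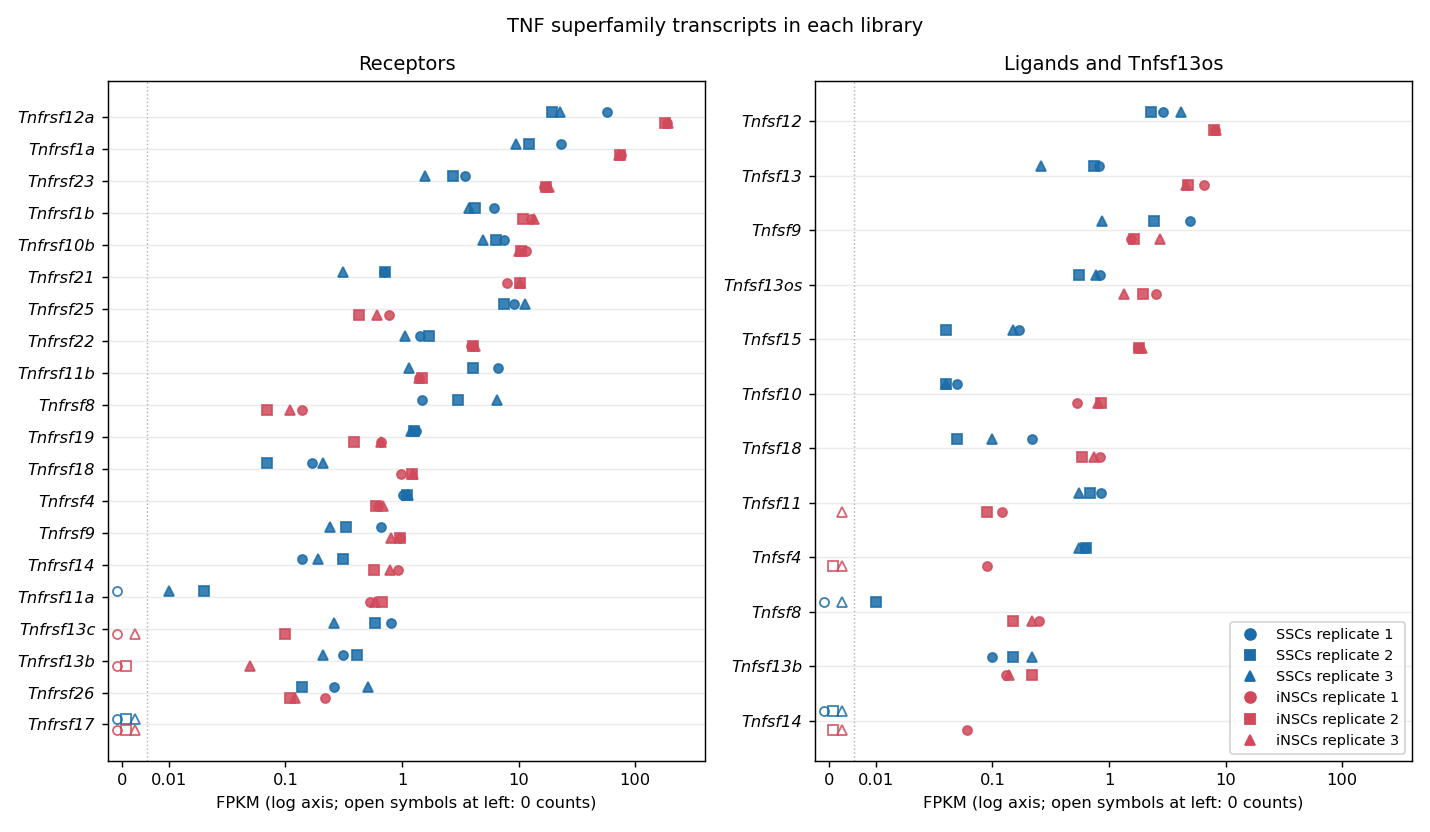
FPKM of each TNF superfamily gene in each library on a log axis, with SSCs in blue above iNSCs in red and 1 symbol per replicate. Open symbols left of the dotted line are libraries with 0 counts. By group mean, Tnfrsf12a and Tnfrsf1a are the highest receptors and Tnfsf12 the highest ligand in both groups, although single SSC libraries differ in that order.

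A large share of the message of these receptors came from a pair of genes. Tnfrsf12a, the receptor of the cytokine TWEAK, and Tnfrsf1a, the main receptor of TNF, made up 47.8 to 66.1% of the summed FPKM of the 20 receptors with a systematic symbol in SSCs and 80.8 to 81.3% in iNSCs. The receptors summed to 121, 66.3 and 66.7 FPKM in SSCs replicates 1, 2 and 3 and to 320, 314 and 329 FPKM in the iNSC libraries. The ligands summed to 6.87 to 10.7 FPKM in SSCs and to 18.0 to 20.1 FPKM in iNSCs. No ligand with a systematic symbol reached a mean of 10 FPKM in either group, while 2 receptors did in SSCs and 5 in iNSCs.

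The receptors of TNF both rose. Tnfrsf1a, a death domain receptor found on most cell types (ENSMUSG00000030341, chromosome 6, 125349362 to 125362484, plus strand), was measured at 23.2, 12.3 and 9.57 FPKM in SSCs replicates 1, 2 and 3 and at 74.8, 73.3 and 73.2 FPKM in iNSCs. SSCs replicate 1 was the highest of its group and still below every iNSC library. The log2 difference was 2.56 (SE 0.29, adjusted p = 1.6e-04). Tnfrsf1b, the second TNF receptor, which has no death domain and binds TRAF2 (ENSMUSG00000028599, chromosome 4, 145213463 to 145246870, minus strand), stood at 6.15, 4.26 and 3.72 FPKM in SSCs and 12.8, 10.98 and 13.6 FPKM in iNSCs. Again the groups were apart, with a log2 difference of 1.67 (SE 0.19, adjusted p = 1.6e-04). Per length, Tnfrsf1a was 2.57 to 3.78 times the level of Tnfrsf1b in the SSC libraries and 5.36 to 6.67 times in the iNSC libraries.

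The TNF gene itself, which the symbol rule leaves out, had 6 counts in all SSC libraries and 686 in all iNSC libraries. Its FPKM was 0.130, 0.0300 and 0.0300 in SSCs and 7.22, 6.56 and 7.69 in iNSCs (log2 6.95, SE 0.39, adjusted p = 7.4e-06, and 7.80 without SSCs replicate 1). The ligand and both of its receptors were thus higher in every iNSC library than in any SSC library.

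TWEAK and its receptor also rose together. Tnfrsf12a, also called Fn14, a small receptor without a death domain that is known as an injury- and growth factor-induced gene (ENSMUSG00000023905, chromosome 17, 23675445 to 23677468, minus strand), read 56.9, 19.4 and 22.5 FPKM in SSCs and 186, 181 and 192 FPKM in iNSCs. SSCs replicate 1 was more than the others of its group, and the groups did not overlap. The log2 difference was 2.77 (SE 0.38, adjusted p = 4.3e-04), and 3.38 without SSCs replicate 1. The 6 Sertoli cell markers summed to 314 FPKM in that library against 56.8 and 109 FPKM in SSCs replicates 2 and 3. Most of that sum was Clu (280, 44.2 and 94.97 FPKM), and Wt1, Gata4 and Dhh were also highest in SSCs replicate 1, while Sox9 and Amh were highest in SSCs replicate 3. In iNSCs replicates 1, 2 and 3 the same 6 markers summed to 641, 836 and 789 FPKM. The 5 that were tested all rose, against 25.7% of all genes tested. The part of cells with these markers in the level of Tnfrsf12a was not tested.

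Tnfsf12, the TWEAK gene, lies on chromosome 11 (69686250 to 69695849, minus strand) and went from 2.90, 2.27 and 4.13 FPKM to 8.16, 7.91 and 8.22 FPKM (log2 1.63, SE 0.26, adjusted p = 8.8e-04). Its neighbour Tnfsf13, the gene of the B cell cytokine APRIL (69682846 to 69685784, minus strand), starts 0.460 kb away and went from 0.820, 0.740 and 0.260 FPKM to 6.58, 4.72 and 4.58 FPKM (log2 3.37, SE 0.40, adjusted p = 2.0e-04). All iNSC libraries were above all SSC libraries for both. The annotation also holds Tnfsfm13, a read-through gene across both, and the antisense Tnfsf13os (69682138 to 69691141, plus strand), so these 4 genes compete for the same reads. Of the 50-base stretches in their annotated transcripts, 46.8% in Tnfsf12 and 57.3% in Tnfsf13 also occur in Tnfsfm13. Tnfsfm13 was at 0.580 to 0.880 FPKM in SSCs and 3.03 to 3.80 FPKM in iNSCs, and Tnfsf13os at 0.840, 0.550 and 0.770 FPKM against 2.55, 1.94 and 1.34 FPKM (log2 1.67, SE 0.36, adjusted p = 0.0037). Every gene of this locus was higher in iNSCs, but how much of that belongs to each is uncertain, and no source used here says whether counting used the strand.

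The TRAIL gene, its death receptor and the decoy receptors Tnfrsf22 and Tnfrsf23 rose. Tnfsf10, the gene of TRAIL, a ligand known to trigger death of many tumour cells (ENSMUSG00000039304, chromosome 3, 27317028 to 27342427, plus strand), had 5, 4 and 4 counts in SSCs and 52, 87 and 86 counts in iNSCs. This is 0.0500, 0.0400 and 0.0400 FPKM against 0.530, 0.850 and 0.810 FPKM, a low level in both groups, with a log2 difference of 4.26 (SE 0.36, adjusted p = 4.0e-05). Tnfrsf10b, the death domain receptor of TRAIL in the mouse, was at 7.45, 6.36 and 4.91 FPKM in SSCs and 11.4, 10.6 and 10.0 FPKM in iNSCs. It lay just past the size threshold (log2 1.03, SE 0.14, adjusted p = 4.7e-04) and was under it without SSCs replicate 3, at 0.90.

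Tnfrsf22 and Tnfrsf23 are decoy receptors for TRAIL known from the mouse, which lie side by side on chromosome 7 with Tnfrsf26. Tnfrsf23 (143665809 to 143685872, minus strand) was measured at 3.47, 2.75 and 1.58 FPKM in SSCs and at 16.5, 17 and 18.0 FPKM in iNSCs (log2 2.99, SE 0.25, adjusted p = 3.9e-05). Tnfrsf22 (143634806 to 143649661, minus strand), 16.2 kb away, was at 1.43, 1.71 and 1.06 FPKM against 3.91, 4.04 and 4.21 FPKM (log2 1.79, SE 0.20, adjusted p = 1.5e-04). Both pairs of groups were separate, and the ratio of Tnfrsf23 to Tnfrsf22 was 1.49 to 2.43 in SSC libraries and 4.21 to 4.29 in iNSC libraries. The pair shares sequence: 17.3% of the 50-base stretches of Tnfrsf22 transcripts also occur in Tnfrsf23, so the split of reads between them is uncertain. In all, 27.4% of the Tnfrsf22 stretches occur in other genes, which include Gm47486 besides Tnfrsf23. Tnfrsf26, the last gene of the cluster, which lies 6.08 kb from Tnfrsf22, had 7 to 31 counts in all 6 libraries and its groups overlapped (log2 -0.77, SE 0.57, adjusted p = 0.25). Without SSCs replicate 3 its difference was -0.14.

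The RANK system moved in opposite directions. Tnfrsf11a encodes RANK, the receptor through which osteoclasts, lymph nodes and mammary epithelium receive RANK ligand (ENSMUSG00000026321, chromosome 1, 105780718 to 105847981, plus strand). It had 0, 2 and 1 counts in SSCs and 60, 78 and 71 counts in iNSCs, or 0.530 to 0.670 FPKM in iNSCs. Its scaled counts were 79.9 times higher in iNSCs, with a 95% counting interval of 27.0 to 391. The fitted log2 difference of 6.13 (SE 0.55, adjusted p = 5.5e-05) depends on where 3 counts lie and was 6.99 without SSCs replicate 2. Tnfsf11, the gene of RANK ligand (ENSMUSG00000022015, chromosome 14, 78277445 to 78308043, minus strand), had 37, 28 and 23 counts in SSCs and 5, 4 and 0 in iNSCs. The groups were apart, and the ligand fell from 0.697 ± 0.150 to 0.0700 ± 0.0624 FPKM (SD, n = 3; log2 -3.03, SE 0.66, adjusted p = 0.0042, and -2.42 without iNSCs replicate 3).

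Tnfrsf11b encodes osteoprotegerin, a secreted decoy that binds RANK ligand and TRAIL. It was at 6.63, 4.05 and 1.14 FPKM in SSCs and 1.40, 1.49 and 1.41 FPKM in iNSCs. SSCs replicate 3 lay below the iNSC libraries and the other SSC libraries above them, so the groups overlapped and the gene was not called (log2 -1.18, SE 0.53, adjusted p = 0.078). Without SSCs replicate 3 the log2 difference was -1.63 and was called (adjusted p = 3.8e-04), as it was with library totals (-1.46, adjusted p = 0.046) and with DESeq2 (-1.20, adjusted p = 0.037). Over all settings its adjusted p ran from 3.8e-04 to 0.28. The 7 fibroblast markers, given above as sums, were also lowest in that library among the SSCs, through the collagens Col1a1, Col1a2 and Col3a1 and through Postn and Thy1, whereas Dcn and Pdgfra were highest there. The part of fibroblasts in the osteoprotegerin level was not tested.

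The start regions of Tnfrsf11a and Tnfsf11 are shown because this receptor and its ligand moved apart. They are taken from RefSeq on GRCm38.p6, read in the direction of the gene, and end before the first base annotated as exon. No capitals appear, since none of the motifs searched below lies in them.
Tnfrsf11a, chr1:105780473-105780717, plus strand: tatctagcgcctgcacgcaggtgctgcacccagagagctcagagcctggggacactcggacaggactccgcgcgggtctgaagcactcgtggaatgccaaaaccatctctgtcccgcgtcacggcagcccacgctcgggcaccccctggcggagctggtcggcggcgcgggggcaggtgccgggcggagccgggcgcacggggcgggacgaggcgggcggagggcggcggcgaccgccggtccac
Tnfsf11, chr14:78308044-78308293, minus strand: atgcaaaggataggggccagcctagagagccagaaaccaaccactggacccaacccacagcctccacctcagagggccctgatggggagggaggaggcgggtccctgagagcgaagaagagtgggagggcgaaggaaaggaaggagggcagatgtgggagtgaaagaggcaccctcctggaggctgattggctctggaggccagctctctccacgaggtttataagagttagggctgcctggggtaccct
The Tnfrsf11a window of 300 bases around the start had 76.7% G and C and 43 CpG pairs, and that of Tnfsf11 61.7% and 7. The medians over all 32851 RefSeq windows were 52.7% and 7.

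CD30 and its ligand also moved apart. Tnfrsf8, the gene of CD30, a receptor known from activated lymphocytes and from germ cell tumours (ENSMUSG00000028602, chromosome 4, 145267137 to 145315164, minus strand), was at 1.48, 3.01 and 6.56 FPKM in SSCs and 0.140, 0.0700 and 0.110 FPKM in iNSCs. SSCs replicate 3 was the highest of an uneven group, and every SSC library was above every iNSC library. The log2 difference was -4.83 (SE 0.68, adjusted p = 4.9e-04), and -4.08 without SSCs replicate 3. Of the 6 germ cell markers, Dazl, Zbtb16, Gfra1 and Nanos2 had the same order of SSC libraries as Tnfrsf8, while Ddx4 and Pou5f1 were lower in SSCs replicate 3 than in SSCs replicate 1. Tnfsf8, the gene of CD30 ligand (chromosome 4, 63831308 to 63861347, minus strand), had 0, 1 and 0 counts in SSCs and 18, 11 and 17 counts in iNSCs. That is a ratio of 52.8 with a counting interval of 9.01 to 2130, and the log2 difference of 5.25 (SE 0.76, adjusted p = 5.6e-04) was 7.05 without SSCs replicate 2. At 0.207 ± 0.0513 FPKM the ligand was low in iNSCs too.

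Tnfrsf8 lies 20.3 kb from Tnfrsf1b on the same strand with no other gene of the table between them, yet the first fell and the second rose. Their start regions are shown for that reason, with motif matches in capitals.
Tnfrsf1b, chr4:145246871-145247120, minus strand: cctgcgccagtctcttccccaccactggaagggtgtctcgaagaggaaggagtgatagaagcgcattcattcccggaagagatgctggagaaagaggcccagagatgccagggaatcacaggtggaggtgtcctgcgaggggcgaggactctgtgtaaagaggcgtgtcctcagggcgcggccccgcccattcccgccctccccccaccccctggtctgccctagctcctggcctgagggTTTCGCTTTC
Tnfrsf8, chr4:145315165-145315414, minus strand: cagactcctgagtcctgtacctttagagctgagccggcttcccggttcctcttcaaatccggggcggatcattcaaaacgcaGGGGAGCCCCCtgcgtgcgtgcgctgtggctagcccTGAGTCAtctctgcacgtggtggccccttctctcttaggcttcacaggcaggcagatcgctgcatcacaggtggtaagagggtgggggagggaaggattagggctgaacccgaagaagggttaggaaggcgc
The capitals in Tnfrsf1b mark GAAA repeated after 2 free bases, a core of the interferon-stimulated response element, 10 bases before the start and read on the opposite strand. Those in Tnfrsf8 mark overlapping matches to the NF-kB consensus that begin 168 and 167 bases before the start and a TGANTCA match, the AP-1 site, 132 bases before it. Over the 28 windows of 24 members in the RefSeq table, both strands searched, the NF-kB consensus matched in 3 windows, TGANTCA in 6 and the GAAA repeat in 4. Overlapping windows of Tnfsf13b hold the same TGANTCA site, which is thus counted more than once. Among all windows of the same length the shares were 8.46%, 7.81% and 3.44%. A match describes letters and not binding.

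DR3 and its ligand formed a further pair with opposite changes. Tnfrsf25, the gene of the death domain receptor DR3, known for costimulation of T cells (ENSMUSG00000024793, chromosome 4, 152115934 to 152120119, plus strand), ranked after Tnfrsf12a and Tnfrsf1a among the members' mean SSC levels, at 9.05, 7.49 and 11.4 FPKM, and was at 0.770, 0.430 and 0.610 FPKM in iNSCs. The groups were far apart and each was tight (log2 -3.70, SE 0.30, adjusted p = 3.2e-05). It was the member with the most reads among those that fell, with 1192 counts in SSCs and 80 in iNSCs. Tnfsf15, the gene of its ligand TL1A (ENSMUSG00000050395, chromosome 4, 63724603 to 63745113, minus strand), went from 0.170, 0.0400 and 0.150 FPKM to 1.78, 1.80 and 1.92 FPKM (log2 4.19, SE 0.43, adjusted p = 9.9e-05). It is the neighbour of Tnfsf8 at a distance of 86.2 kb, and both rose from at most 0.17 FPKM in any SSC library.
Tnfrsf25, chr4:152115684-152115933, plus strand: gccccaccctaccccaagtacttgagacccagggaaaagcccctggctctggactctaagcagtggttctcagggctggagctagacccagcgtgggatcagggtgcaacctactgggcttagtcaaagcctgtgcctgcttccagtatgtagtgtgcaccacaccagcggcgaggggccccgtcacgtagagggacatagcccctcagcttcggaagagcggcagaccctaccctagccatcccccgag
Tnfsf15, chr4:63745114-63745309, minus strand: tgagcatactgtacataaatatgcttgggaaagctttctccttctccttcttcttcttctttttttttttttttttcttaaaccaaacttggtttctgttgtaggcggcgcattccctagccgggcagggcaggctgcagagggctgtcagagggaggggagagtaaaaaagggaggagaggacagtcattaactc
These are again the regions before the first annotated exon of a pair that moved apart, and no motif of those searched lies in them. A second RefSeq start of Tnfrsf25, inside annotated exons and not shown, holds NF-kB consensus matches. The Tnfrsf25 window shown had 63.3% G and C and 12 CpG pairs, and that of Tnfsf15 48.0% and 3.

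GITR and its ligand rose together from low levels. Tnfrsf18, the gene of GITR, a receptor best known from regulatory T cells (chromosome 4, 156026164 to 156028895, plus strand), had 5, 2 and 6 counts in SSCs and 28, 36 and 38 counts in iNSCs, and reached 1.14 ± 0.142 FPKM (log2 3.13, SE 0.42, adjusted p = 3.7e-04). An antisense gene, Gm16008, covers 18.7% of the 50-base stretches of its transcripts and went from 0 to 4 counts per library to 31 to 33, so reads in that overlap cannot be assigned without the strand. Tnfsf18, the ligand (chromosome 1, 161494655 to 161505290, plus strand), had 9, 2 and 4 counts against 32, 24 and 31 (log2 2.72, SE 0.48, adjusted p = 0.0014, and 3.36 without SSCs replicate 1). No library of 1 group reached the other.

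The adjacent OX40 genes did not follow. Tnfsf4, the gene of OX40 ligand, a costimulatory ligand of antigen-presenting cells, lies 76.2 kb from Tnfsf18 with no gene of the table in between. It had 22, 21 and 19 counts in SSCs and 3, 0 and 0 counts in iNSCs, a ratio of 18.0 with a counting interval of 5.88 to 89.7. The log2 difference was -4.02 (SE 0.79, adjusted p = 0.0026) and -7.30 without iNSCs replicate 1, which holds all counts of that group. Tnfrsf4, the gene of OX40, lies 9.55 kb from Tnfrsf18 and was at 1.02, 1.10 and 1.13 FPKM in SSCs and 0.620, 0.600 and 0.690 FPKM in iNSCs. These levels did not overlap, but the difference was not called (log2 -0.51, SE 0.28, adjusted p = 0.14). The rest of the receptors on the distal part of chromosome 4 also went both ways, Tnfrsf1b, Tnfrsf9, Tnfrsf14 and Tnfrsf18 upward and Tnfrsf8 and Tnfrsf25 downward.

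Of the receptors of B cell survival factors, Tnfrsf13b and Tnfrsf13c were low and fell. Tnfrsf13b, the gene of TACI, which binds BAFF and APRIL, had 17, 21 and 11 counts in SSCs and 0, 0 and 3 in iNSCs. This is a ratio of 14.2 with a counting interval of 4.59 to 71.4 (log2 -3.69, SE 0.85, adjusted p = 0.0055, and -6.95 without iNSCs replicate 3). Tnfrsf13c, the gene of the BAFF receptor, had 32, 22 and 10 counts against 0, 4 and 0 (log2 -3.68, SE 0.93, adjusted p = 0.0085, with -7.31 without iNSCs replicate 2 and -3.09 without iNSCs replicate 3). Both were separate between the groups but under 1 FPKM in every library. Tnfrsf17, the gene of BCMA, the other receptor of this set, had 0 counts in all 6 libraries, which allows up to 3 counts, or 0.149 to 0.166 CPM, in each. Tnfsf13b, the BAFF gene, had 13 to 28 counts in SSCs and 17 to 30 in iNSCs, with overlapping groups (log2 0.31, SE 0.42, adjusted p = 0.52).

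Markers of lymphocytes were measured beside these genes. Of 7 T, B and NK cell markers, 3 were tested and all of them, Cd3e, Cd79a and Cd2, fell, against 27.6% of all genes tested. All 3 passed the expression filter in SSCs alone, so their presence in the test was tied to a fall and their count carries no support. Their list summed to 4.71 to 5.23 FPKM in SSCs and 0.110 to 0.200 FPKM in iNSCs. The B cell marker Ms4a1 was at 0.02 FPKM in every SSC library and at 0 to 0.01 FPKM in iNSCs, while Cd79a was at 2.58 to 3.34 FPKM in SSCs. The 7 macrophage and dendritic cell markers summed to 6.36 to 12.6 FPKM in SSCs and 15.2 to 16.6 FPKM in iNSCs, nearly all of it Cd68 and, in iNSCs, Csf1r, with C1qa at 0 in iNSCs. Of 7 endothelial markers, 5 fell, against 27.6% of all genes tested. The list went from a summed 4.87 to 5.58 FPKM in SSCs to 0.930 to 1.44 FPKM in iNSCs. Tek and Tie1 passed the expression filter in SSCs alone. Kdr had overlapping groups (adjusted p = 0.049) and kept its call in 8 of 13 settings, and Tie1 in 6 of 13. The part of any such cells in the members' levels was not tested.

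Among the remaining members Tnfrsf21 had the second largest rise of the receptors with a systematic symbol. It encodes DR6, a death domain receptor expressed in the nervous system and in lymphocytes (ENSMUSG00000023915, chromosome 17, 43016555 to 43089189, plus strand). Its level was 0.700, 0.710 and 0.310 FPKM in SSCs and 7.96, 10.3 and 10.3 FPKM in iNSCs (log2 4.30, SE 0.30, adjusted p = 1.9e-05). No other member reached so high an iNSC level from under 1 FPKM in every SSC library. Tnfrsf14, the gene of HVEM, which binds LIGHT and inhibitory partners on lymphocytes, had 4, 8 and 5 counts against 25, 16 and 23 (log2 2.08, SE 0.43, adjusted p = 0.0031). Its ligand LIGHT, from Tnfsf14, had 0 counts in SSCs and 2 in iNSCs and was not tested.

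Tnfrsf9, a costimulatory receptor of T cells also called CD137, was at 0.660, 0.330 and 0.240 FPKM in SSCs and 0.960, 0.960 and 0.800 FPKM in iNSCs. The groups did not overlap (log2 1.41, SE 0.39, adjusted p = 0.012, running from 0.0019 to 0.048 across settings). Its gene overlaps Camta1 on the other strand, which fell from 4.96 to 0.763 FPKM. Tnfsf9, the ligand of CD137, was at 4.96, 2.45 and 0.870 FPKM in SSCs and 1.53, 1.63 and 2.73 FPKM in iNSCs. The SSC libraries spanned the iNSC range (log2 -0.21, SE 0.57, adjusted p = 0.75), and without SSCs replicate 1 the difference was 0.48, still not called. The gene shares 11.5% of its 50-base stretches with the antisense Gm11110. Tnfrsf19, the gene of TROY, a receptor of the developing nervous system and of epithelial stem cells, was at 1.32, 1.26 and 1.20 FPKM in SSCs and 0.660, 0.390 and 0.660 FPKM in iNSCs. It was lower in every iNSC library, past the p threshold but not the size threshold (log2 -0.88, SE 0.27, adjusted p = 0.018). With library totals in place of TMM scaling its difference was -1.14 and was called, and with limma on log2(FPKM + 0.1) it was -1.05 and was called.

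**Figure D2:**
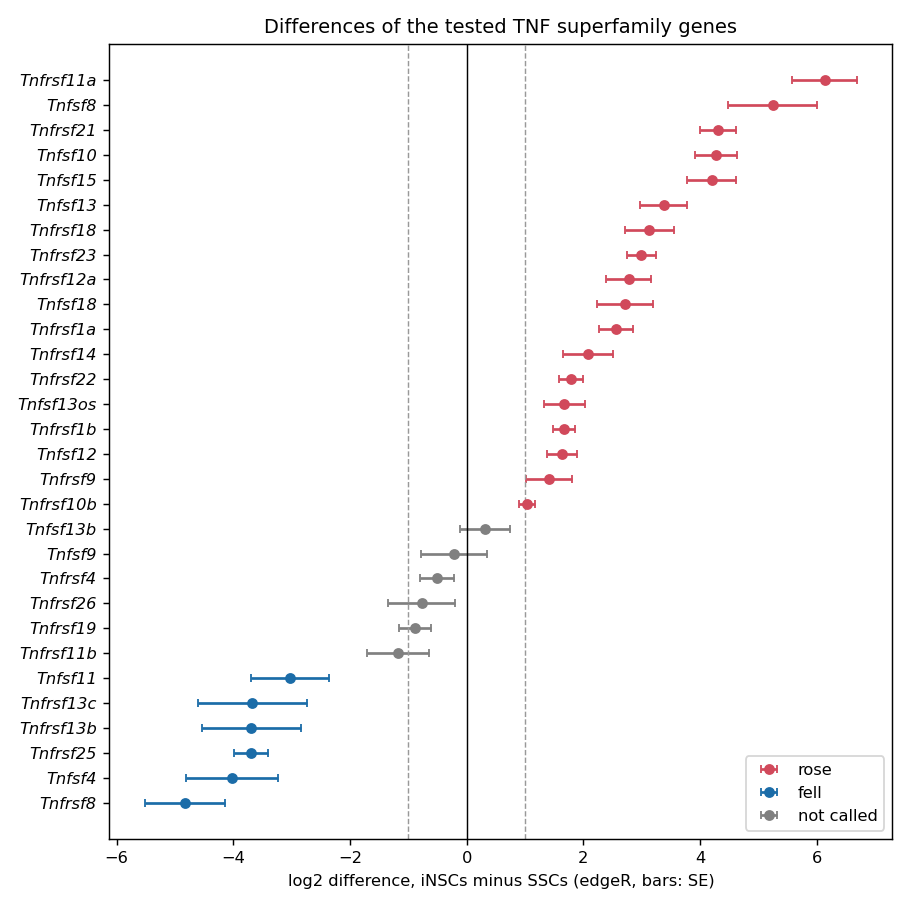
Log2 difference of each tested TNF superfamily gene, iNSCs minus SSCs, with its standard error, derived from edgeR's F statistic. Red points rose, blue points fell and grey points were not called, and dashed lines mark differences of -1 and 1. The largest rise is that of Tnfrsf11a (6.13) and the largest fall that of Tnfrsf8 (-4.83), both with wide errors from low or uneven counts.

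Known ligand and receptor pairs can be read side by side. Of 15 pairs in which both genes have a systematic symbol, 3 rose on both sides (Tnfsf10 with Tnfrsf10b, Tnfsf12 with Tnfrsf12a, Tnfsf18 with Tnfrsf18), 0 fell on both sides and 4 moved in opposite directions. In Tnfsf8 with Tnfrsf8, Tnfsf13 with Tnfrsf13b and Tnfsf15 with Tnfrsf25 the ligand rose and the receptor fell. In Tnfsf11 with Tnfrsf11a the ligand fell and the receptor rose. The other 8 pairs held at least 1 gene that was not called or not tested. Tnfsf10 was paired with Tnfrsf10b alone: its decoys Tnfrsf22 and Tnfrsf23, which also rose, and Tnfrsf11b, which was not called, are not counted as its pairs, so these counts depend on which partners are listed. Over all genes tested, 25.7% rose and 27.6% fell. Among the pairs that rose on both sides, Tnfsf10, Tnfsf18 and Tnfrsf18 passed the expression filter in iNSCs alone. Among the opposite pairs, Tnfrsf11a and Tnfsf8 passed it in iNSCs alone, and Tnfsf11, Tnfrsf8 and Tnfrsf13b in SSCs alone. The pair counts are therefore a description and carry no support. Pairs share genes, and these are mRNA levels, which do not show protein or binding.

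**Figure D3:**
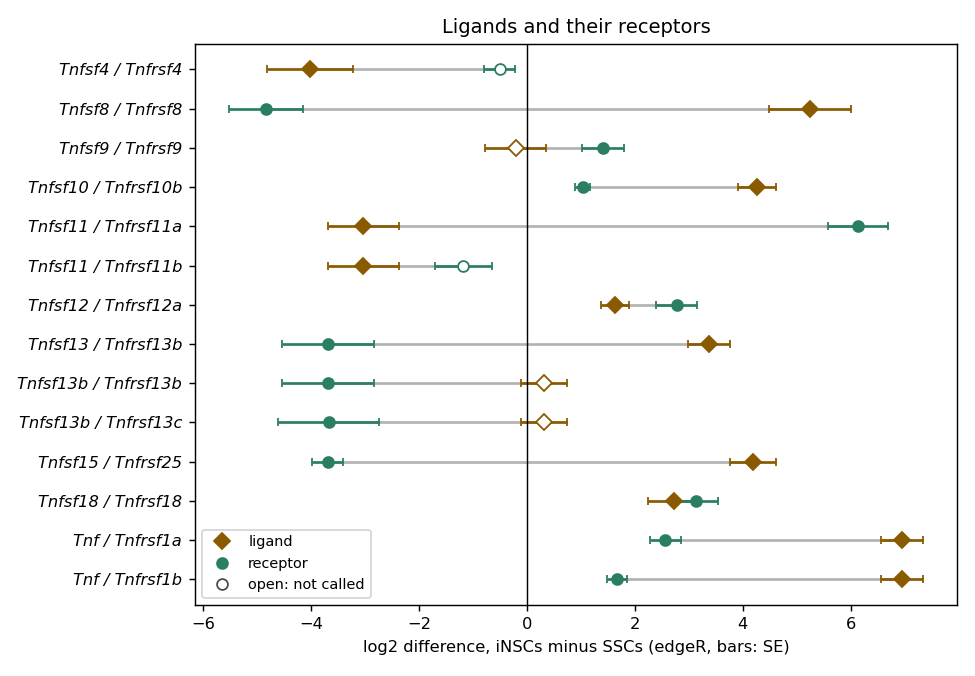
Log2 differences, iNSCs minus SSCs, of ligands (diamonds) and their receptors (circles) in 14 pairs in which both genes were tested, joined by a line. Bars are standard errors derived from edgeR's F statistic, and open symbols are genes that were not called. Lines that cross 0 with filled ends are the 4 pairs that moved in opposite directions.

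The family members with other symbols were read from the same fit. Among the ligands only Tnf rose. Ltb, the gene of lymphotoxin beta, was the highest ligand of the whole family, at 6.37, 10.6 and 20.7 FPKM in SSCs and 14.1, 18.0 and 20.1 FPKM in iNSCs. The groups overlapped and it was not called (log2 0.70, SE 0.42, adjusted p = 0.17), although without SSCs replicate 3 it was (log2 1.31). Eda, the gene of ectodysplasin, was at 0.797 ± 0.117 and 1.14 ± 0.116 FPKM, under the size threshold (log2 0.77), and Lta, the gene of lymphotoxin alpha, had 45 counts in SSCs and 28 in iNSCs (log2 -0.49, adjusted p = 0.45). Fasl (26 against 1 count), Cd70 (29 against 1) and Cd40lg (1 against 0) did not pass the expression filter.

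Of 8 such receptors 4 rose and 2 fell, against 25.7% and 27.6% of all genes tested. Cd40, a receptor of B cells, antigen-presenting cells and epithelia, was at 0.820, 0.370 and 0.280 FPKM in SSCs and 14.3, 14.3 and 14.4 FPKM in iNSCs (log2 5.12, SE 0.34, adjusted p = 1.4e-05). Ltbr, the lymphotoxin beta receptor, was at 13.8, 7.65 and 3.61 FPKM against 57.2, 54.7 and 61.3 FPKM (log2 3.06, SE 0.41, adjusted p = 3.7e-04). Both were separate between groups by a wide margin, and Ltbr ranked next after Tnfrsf12a and Tnfrsf1a among all receptors in iNSCs. Eda2r, the receptor of an ectodysplasin isoform, rose with a log2 difference of 1.78. Fas, a death domain receptor, was at 2.83, 2.01 and 0.360 FPKM in SSCs and 5.38, 3.75 and 4.48 FPKM in iNSCs (log2 1.66, SE 0.58, adjusted p = 0.032). Its call was lost without SSCs replicate 2 (adjusted p = 0.071), without iNSCs replicate 1 (0.085), without iNSCs replicate 2 (0.052) and without iNSCs replicate 3 (0.071), and also with library totals (0.071) and with limma on log2(FPKM + 0.1) (0.0504), and the adjusted p ran from 0.0028 to 0.085 across settings. Ngfr, the low-affinity neurotrophin receptor of neural crest and glia, fell from 1.10 ± 0.327 to 0.177 ± 0.0924 FPKM (log2 -2.35), and Relt from 4.50 ± 0.445 to 1.00 ± 0.0777 FPKM (log2 -1.91). Edar and Cd27 were at 0.07 to 0.68 FPKM in all libraries and were not called (log2 -0.42 and 0.60).

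Genes that act inside the cell after these receptors were also counted. Of 11 adaptors 6 rose and 1 fell, with a median log2 difference of 1.34, where 25.7% of all genes tested rose and 27.6% fell. Tradd, the adaptor of Tnfrsf1a and Tnfrsf25, went from 4.26, 2.43 and 1.43 FPKM to 11, 10.6 and 13.3 FPKM (log2 2.37, SE 0.35), and the kinase Ripk1 from 2.23 ± 0.344 to 7.57 ± 0.239 FPKM (log2 2.02, SE 0.13). Traf5 rose by a log2 difference of 2.06, and Edaradd, the adaptor of the ectodysplasin receptor, fell from 89 to 23 counts (log2 -1.75). Traf1, at 0.06 to 0.15 FPKM, was called only without SSCs replicate 3 (log2 1.18).

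Of 11 caspases and death effectors 4 rose and 2 fell (median 0.65), against 25.7% and 27.6% of all genes tested. Casp8, the initiator caspase of death receptors, was at 4, 2.18 and 1 FPKM in SSCs and 24.7, 26.3 and 23.2 FPKM in iNSCs (log2 3.64, SE 0.42, adjusted p = 1.7e-04). Cflar, which encodes its inhibitor c-FLIP, rose in the same libraries from 1.79 ± 0.458 to 10.1 ± 0.0416 FPKM (log2 2.75, SE 0.17). Mlkl, the executor of necroptosis, rose by 3.38 on the log2 scale. Diablo, a mitochondrial antagonist of inhibitor-of-apoptosis proteins, fell from 7.33 ± 0.707 to 2.43 ± 0.244 FPKM (log2 -1.33). Genes with opposite effects on cell death thus stood among the risers.

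Of 12 ubiquitin ligases, deubiquitinases and their partners 5 rose and 1 fell (median 0.69), against 25.7% and 27.6% of all genes tested. The risers included Tnfaip3, which encodes the NF-kB inhibitor A20, from 1.54, 3.33 and 2.20 FPKM to 14.1, 15.8 and 16.5 FPKM (log2 2.96, SE 0.28), Birc3, the gene of the ligase cIAP2 (log2 2.63, SE 0.14), and the deubiquitinase Cyld (log2 2.02, SE 0.16). Tnip2, an A20 partner, fell from 20.0 ± 1.14 to 6.79 ± 0.420 FPKM (log2 -1.31). Rnf31, the catalytic subunit of the linear ubiquitin ligase, was not called at -0.94 but was called without SSCs replicate 3 (-1.08) or iNSCs replicate 3 (-1.04), with library totals (-1.20) and with limma (-1.08 and -1.18). Sharpin, of the same ligase, rose by 1.02 but was not called without SSCs replicate 2 (1.00), SSCs replicate 3 (0.96) or iNSCs replicate 3 (0.99), nor with library totals (0.76) or limma (0.68 and 0.76).

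Of 16 kinases and NF-kB factors 4 rose and 3 fell (median 0.32). Among all genes tested 25.7% rose and 27.6% fell, so the share of risers in this list was near that of all genes. The risers included Nfkb1 (log2 2.91), Ikbkb (log2 2.11) and Ikbkg (log2 1.86). Downward went the stress kinases Map3k5 (log2 -1.74) and Mapk8 (log2 -1.08, and -0.96, not called, without SSCs replicate 3) and Tab3 (log2 -1.35). Tab2, not called at 0.98, was called without SSCs replicate 3 (1.08) and without iNSCs replicate 1 (1.01), 2 (1.03) or 3 (1.02), and without the expression filter (1.02). Of 5 genes for the release of ectodomains 3 rose and 0 fell: Rhbdf1 (log2 1.79), Adam10 (log2 1.38) and Furin (log2 1.01), the last at 0.91 and not called without SSCs replicate 1 and at 0.95 and not called without SSCs replicate 2. Furin was at the size threshold and kept its call in 6 of 13 settings, losing it also with DESeq2 (1.00), with DESeq2 size factors (1.00), with library totals (0.77) and with limma (0.73 and 0.78). Adam17, the main protease that sheds TNF, was at 16.7, 16.9 and 22.2 FPKM in SSCs and 16.4, 16.8 and 15.6 FPKM in iNSCs (log2 0.05). Over all 67 tested genes of the 7 lists, 27 rose and 9 fell, against 25.7% and 27.6% of all genes tested. Some listed genes, such as Tnf and Edaradd, passed the expression filter only in the group where they were higher. The list counts are therefore also a description and carry no support.

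**Figure D4:**
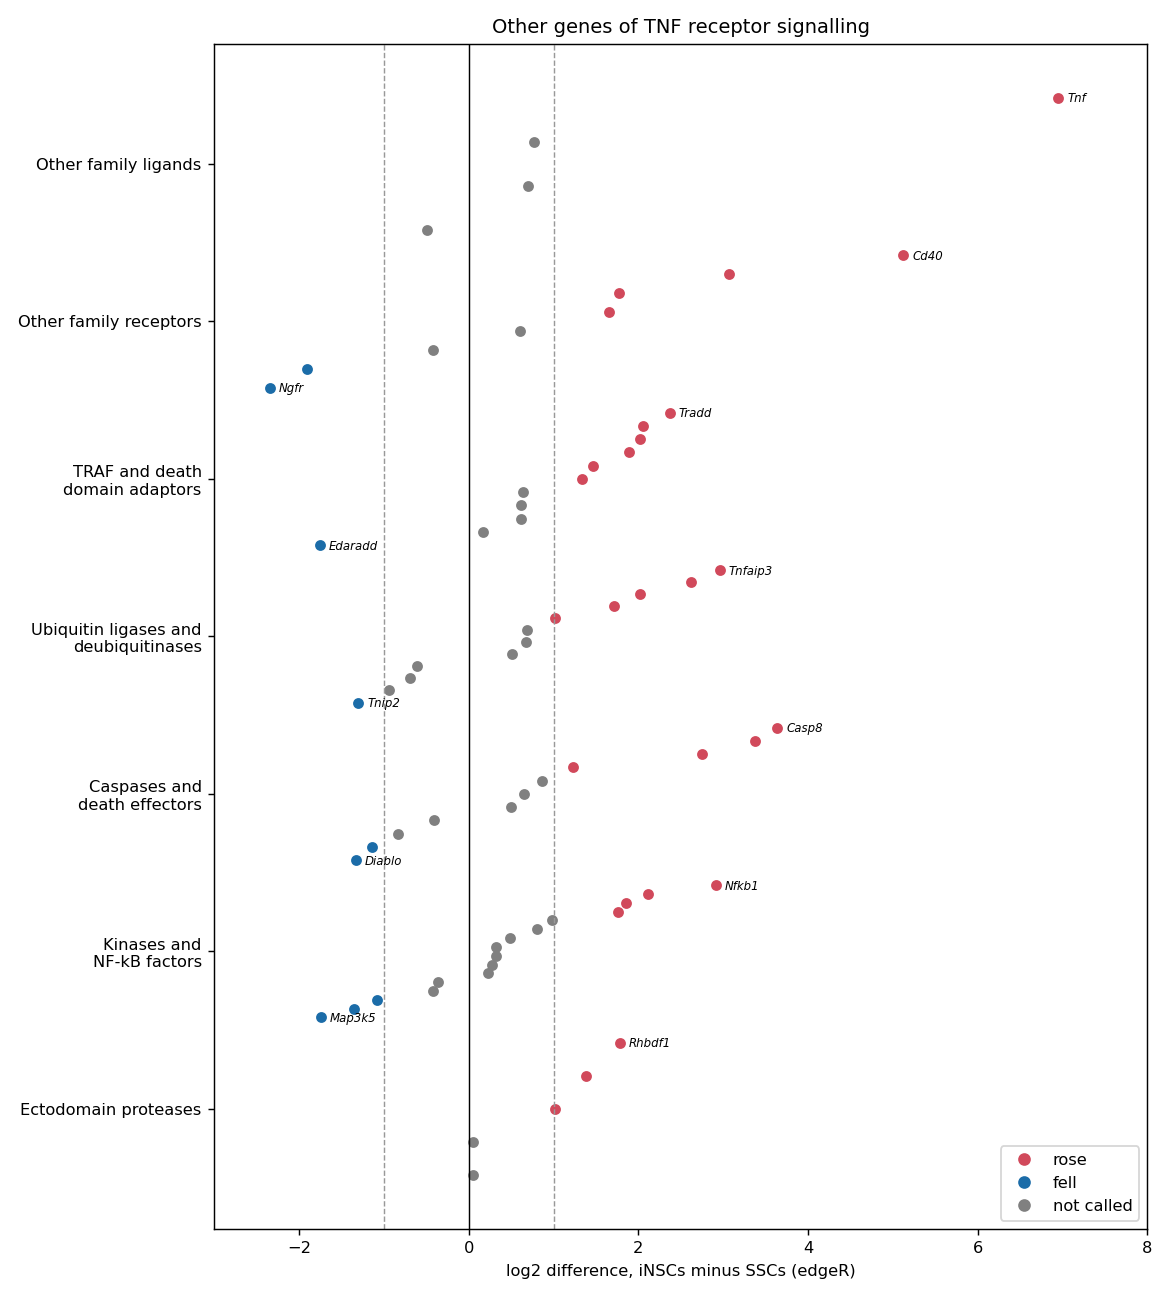
Log2 differences, iNSCs minus SSCs, of the tested genes of 7 lists around TNF receptor signalling. Each point is a gene, red for risers, blue for fallers and grey for genes not called, with the largest called change of each list and direction named and dashed lines at -1 and 1. Tnf (6.95) and Cd40 (5.12) lie farthest to the right and Ngfr (-2.35) farthest to the left.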

How the data were processed

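Polyadenylated RNA of 3 SSC and 3 iNSC libraries was made with a stranded kit, per the labels' protocols. The authors deposited read counts (whole numbers) and FPKM of each gene in a single table. Dividing the deposited counts by exonic length and column total gave the deposited FPKM for 100% of values within 0.0051. The submitters' processing notes list HISAT2, DESeq2 and mm9 with no roles, and the sources used here name no counting tool or strand setting. The table's coordinates were compared with GENCODE M21 on GRCm38: 54821 of 55141 shared identifiers had the same chromosome, start and end, as had 31 of the 32 members (all except Tnfsf15), so coordinates are given as in the table, on GRCm38.

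Counts were fitted over all genes with edgeR 4.0.16 (R 4.3.3): TMM scaling, its default expression filter (minimum count 10, total 15), quasi-likelihood test, two-sided, Benjamini-Hochberg adjustment over 17387 genes. Calls required adjusted p below 0.05 together with a log2 difference of 1 or more in size. The SE of a log2 difference is its size divided by the square root of the test's F statistic. Means ± SD are of FPKM over 3 libraries. With 1 to 3 counts in a group a ratio of scaled counts replaces the fitted fold, with an exact 95% Clopper-Pearson interval, and such intervals and the limit of 3 counts for a count of 0 cover counting error only. At 18058551 to 20156067 counts per library, 3 counts are 0.149 to 0.166 CPM. Transcript sequences of GENCODE M21 were searched for shared 50-base stretches on both strands. RefSeq start regions span 250 bases before to 50 after a start. The NF-kB consensus is the standard 10-base motif. Alternatives were DESeq2 1.42.0, limma 3.58.1 on log2(FPKM + 1) and log2(FPKM + 0.1), other scalings, no expression filter, no size threshold, the replicate number as a block and leaving out each library. The scripts were tested on simulated data.

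The members, gene lists and pairs were chosen with earlier results of these data known. Named were all called members, uncalled members of at least 1 FPKM in a group, up to 3 called genes per list and direction with the largest changes, and all family members with other symbols. Tnfrsf26, Tnfsf13b, Traf1, Rnf31, Sharpin, Tab2, Adam17 and the marker and overlapping genes were named after their values were seen. A few listed genes are counted but not reported here by name.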

Additional observations from a re-analysis of the deposited data

How the results depend on the processing

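Dropping the size threshold from the same fit cannot remove a call, so it is no check of the 24 called members. All 24 kept their call and direction with DESeq2 size factors, with DESeq2 and without the expression filter. With library totals in place of TMM, which moved log2 differences of all genes by a median of -0.25, and with limma on log2(FPKM + 0.1), 23 did. In both the exception was Tnfrsf10b (0.77 and 0.78). With limma on log2(FPKM + 1), 9 members rose and 2 fell, and 11 of the 24 calls were kept. The other 13 kept their direction and an adjusted p of at most 0.0129, but missed the size threshold. The part of the added 1 FPKM in these losses was not tested. Of the lists under that setting, 1 other family receptor, 0 adaptors and 2 ubiquitin genes fell. Leaving out 1 library gave 17 to 18 members that rose and 6 to 7 that fell, 1 to 2 other ligands that rose and 1 to 2 ubiquitin genes that fell. Over the 7 lists, 24 to 29 genes rose and 9 to 10 fell. Without a size threshold 15 listed genes fell, 2 other ligands rose, 8 ubiquitin genes rose and 4 fell, 7 caspases and effectors rose and 4 fell, and 8 kinases and NF-kB factors rose. Without the expression filter 2 other ligands fell. With library totals or with limma on log2(FPKM + 0.1), 2 ubiquitin genes fell. No called gene changed its direction.

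The replicate numbers of the titles are shared by both groups, and deviations of same-numbered libraries correlated at 0.091, 0.050 and -0.015. With 3 libraries per group, such values cannot settle whether same-numbered libraries share a source. With the number as a block, 18 members rose and 6 fell, with 0 changed calls. Depth limits the low members: 11 called members passed the filter in 1 group alone, and 3 counts or fewer set the fold of Tnfrsf11a, Tnfsf8, Tnfsf4 and Tnfrsf13b.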
